A study of Mus musculus with 41 samples.

Results

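The collagen genes of mouse mesothelioma were read in RNA sequencing counts of 6 tumor-derived cell lines and 9 tumors. Every gene whose symbol has the form Col, a number, a, a number was taken, which gave 44 of the 27197 genes in the table. They were grouped by the type of collagen chain they encode into 11 fibrillar genes, 6 of basement membranes (type IV), 6 of type VI, 9 of the FACIT class (fibril-associated collagens with interrupted triple helices), and 12 others. The mice carried floxed Nf2 (Nf2 f/f) and the Cdkn2ab-/- allele, which lacks Ink4a and Ink4b from the germ line on and has a floxed Arf, and those of the BNC group also carried floxed Bap1 (Bap1 f/f). The floxed genes were deleted in adult mice of mixed background by an adenovirus that expressed Cre from the ubiquitous CMV promoter and was injected into the chest, so cells other than mesothelial cells could be hit. The BNC lines JB81, JB91, and JB97 (Bap1, Nf2, and Cdkn2ab lost) and the NC lines JB84, JB87, and JB93 (Nf2 and Cdkn2ab lost) were grown out of pieces of primary tumor and used at early passage. The comparison of BNC with NC lines asks what the added loss of Bap1, a deubiquitinase of histone H2A, goes with. The tumor RNA samples are labeled in part with the BNC and in part with the NC genotype. Which genotype each of the 9 tumor libraries has is not given in the sources used here, so the tumors form 1 mixed group. Their RNA also holds that of the stroma.

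Total counts were between 8158740 and 23936922 per library, with the lowest in tumor B1. Bap1 was between 36.9 and 41.4 CPM (counts scaled by library size and edgeR's TMM factor) in BNC lines and between 56.8 and 60.3 CPM in NC lines, and these counts include exons outside the deletion. JB81 and JB91 were almost alike (biological coefficient of variation 0.0386), as were JB84 and JB93 (0.0578), whereas coefficients of the remaining pairs of a group ran from 0.457 to 0.496. Whether the lines of a close pair came from separate animals is not given in the sources used here, so p-values measure only the spread between these lines, and results are given with each close pair summed to 1 sample too. Among the tumors, B2 had 30129 CPM of the airway gene Scgb1a1, B1, B19, and B45 had between 14559 and 21994 CPM of the muscle gene Acta1, and 24.7% of the counts of B1 lay on Gm42418, a locus of ribosomal RNA reads. The mesothelial list (Msln, Wt1, Upk3b, Krt8, Krt18, Krt19, Pdpn, Lrrn4) summed to between 127 and 667 CPM in BNC lines and between 2160 and 3018 CPM in NC lines. Of its 8 genes 2, Krt18 and Krt8, fell in BNC lines at an adjusted p-value under 0.05, and 1, Wt1, had a higher mean there. Wt1 was at 114 ± 31.3 CPM in BNC and 92.1 ± 18.6 CPM in NC lines (SD, n = 3, edgeR adjusted p = 0.43), and the groups overlapped. Msln, the largest part of the sum in NC lines, was at 2064, 901, and 2151 CPM in JB84, JB87, and JB93 (edgeR adjusted p = 0.22 against BNC lines). The part of these differences in the collagen values was not tested. Of the leukocyte list, Ptprc, Adgre1, Cd3e, Itgam, and C1qa had at most 3 counts in every line, Cd68 was at a log2 fold change of -0.38 (adjusted p = 0.36), and Lyz2, the lysozyme gene of myeloid cells, was higher in BNC lines, at 37.3, 41.3, and 1.18 CPM in JB81, JB91, and JB97 against at most 0.247 CPM in NC lines (adjusted p = 0.035). Of 4 tested genes of the fibroblast list 3 had a higher mean in BNC lines. Pdgfra, Dcn, and Mfap5 were at log2 fold changes of 0.46, 0.68, and 1.84 (edgeR adjusted p = 0.35, 0.72, and 0.29), and Mfap5 was below 1 CPM in every line. The fourth, Cd34, fell from 67.7 ± 16.5 CPM in NC to 9.19 ± 1.51 CPM in BNC lines (SD, n = 3, adjusted p = 0.0060). Of the endothelial list Kdr and Tek were at log2 fold changes of -4.55 and 0.66 (adjusted p = 0.093 and 0.59). The part of these genes in the collagen values was not tested either.

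Collagens are extracellular proteins whose chains wind around each other as trimers, with glycine at a fixed spacing along each chain. Fibrillar collagens form the load-bearing fibers of connective tissue, type IV collagen forms the sheet of the basement membrane on which mesothelium rests, type VI forms beaded filaments around cells, and FACIT collagens sit on the surface of fibrils. Many chains are made only as part of a fixed set: type I joins chains of Col1a1 and Col1a2, type IV of Col4a1 and Col4a2, and type VI of Col6a1, Col6a2, and Col6a3.

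The gene structure carries the repeat. In the fibrillar genes 305 of 649 coding exons (47.0%) were exactly 54 bases long, against 12 of 296 (4.05%) in the type IV genes, 17 of 217 (7.83%) in type VI, 109 of 432 (25.2%) in FACIT genes, and 26 of 410 (6.34%) in the others. A 54-base exon is shown for each of 4 fibrillar genes named in the comparison of the lines. The sequences are from GRCm38.p6, with capitals for the first letters, GG, of each glycine codon.
Col1a1, chr11:94939904-94939957, plus strand: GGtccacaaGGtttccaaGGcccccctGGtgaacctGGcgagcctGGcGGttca
Col1a2, chr6:4515481-4515534, plus strand: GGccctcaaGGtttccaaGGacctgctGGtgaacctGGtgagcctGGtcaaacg
Col2a1, chr15:97998545-97998598, minus strand: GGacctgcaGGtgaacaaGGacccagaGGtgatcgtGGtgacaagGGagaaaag
Col5a3, chr9:20801068-20801121, minus strand: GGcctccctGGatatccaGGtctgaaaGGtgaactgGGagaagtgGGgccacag
Each of the 4 exons holds 18 codons, and 6 of them at a fixed spacing are glycine codons, with 1 further glycine codon in the exon of Col1a1. Shown is the first 54-base coding exon of each gene that starts on a whole codon and has this spacing. The spacing was thus the rule by which the exons were picked, so they illustrate the repeat and do not test it.

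Col4a1 and Col4a2, the main chains of the basement membrane, lie head to head on chromosome 8. Their annotated first bases are 21 bases apart, so that the 22 bases chr8:11312805-11312826 belong to the first exons of both genes, on opposite strands, and read on the plus strand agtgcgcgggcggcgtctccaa. Col4a6 and Col4a5 on chromosome X also point away from each other, with 1343 bases between their starts. Upstream windows of 250 bases were taken from RefSeq (GRCm38.p6) for 35 members, which have 38 such windows, and 9 members had no window. GGGCGG, read on both strands, stood in 22 of the 38 windows (57.9%) and in 32.7% of all 32851 windows. CCAAT stood in 13 (34.2%, against 33.8% of all) and TATAAA in 5 (13.2%, against 12.4%). The windows of Col5a3 and Col3a1, fibrillar genes with higher and lower mean counts in BNC lines, are shown with these motifs in capitals on either strand (CCGCCC is GGGCGG on the other strand).
Col5a3, chr9:20815068-20815317, minus strand: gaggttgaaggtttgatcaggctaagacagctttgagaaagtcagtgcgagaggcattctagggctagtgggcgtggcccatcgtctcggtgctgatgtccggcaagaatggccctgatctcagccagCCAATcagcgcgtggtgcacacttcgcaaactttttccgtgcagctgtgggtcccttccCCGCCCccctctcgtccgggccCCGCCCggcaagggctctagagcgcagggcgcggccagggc
Col3a1, chr1:45311288-45311537, plus strand: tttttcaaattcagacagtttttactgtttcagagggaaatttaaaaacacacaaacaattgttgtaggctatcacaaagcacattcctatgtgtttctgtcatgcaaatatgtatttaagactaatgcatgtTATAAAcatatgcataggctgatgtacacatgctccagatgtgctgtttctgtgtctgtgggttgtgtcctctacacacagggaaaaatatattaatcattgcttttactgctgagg
The window of Col5a3 holds 1 CCAAT and 2 GGGCGG on either strand, and that of Col3a1 holds 1 TATAAA and neither of the others. The 2 windows are examples, and a relation of motifs to the difference between the lines was not tested. The window of Col11a2, with a lower mean in BNC lines, holds 2 GGGCGG and 1 TATAAA. That of Col6a1, with a higher mean there, holds 0 of these motifs.

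Collagen genes took between 1.93% and 2.96% of all counts in BNC lines and between 0.771% and 1.33% in NC lines, so that the 3 BNC lines lay above the 3 NC lines. Of the 44 genes, 25 had enough counts to be tested between the lines, among 12376 genes of the whole table. In 20 of the 25 the mean was higher in BNC lines, and in 5 it was lower. At an adjusted p-value under 0.05 (quasi-likelihood F test of edgeR, Benjamini-Hochberg adjustment over all genes tested) 10 collagen genes were higher in BNC lines, where 5.78% of all genes tested were, and 0 were lower, where 8.45% of all genes were. With no adjustment, 15 had a p-value under 0.05 in either direction, against 35.6% of all genes. The 10 were Col2a1, Col5a3, Col4a1, Col4a2, Col4a6, Col6a1, Col6a2, Col16a1, Col8a2, and Col18a1. At adjusted p under 0.01 with over 2-fold change 1 collagen gene, Col2a1, was called, where 1.10% of all genes were. All BNC lines exceeded all NC lines in 13 of the 25, against 20.1% of all genes tested, and all BNC lines lay under all NC lines in 1, Col3a1, against 21.4%. The median log2 fold change was 1.60 over the 25 genes, with Col2a1 at its lower bound or as fitted, and -0.0023 over all genes tested.

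**Figure D1:**
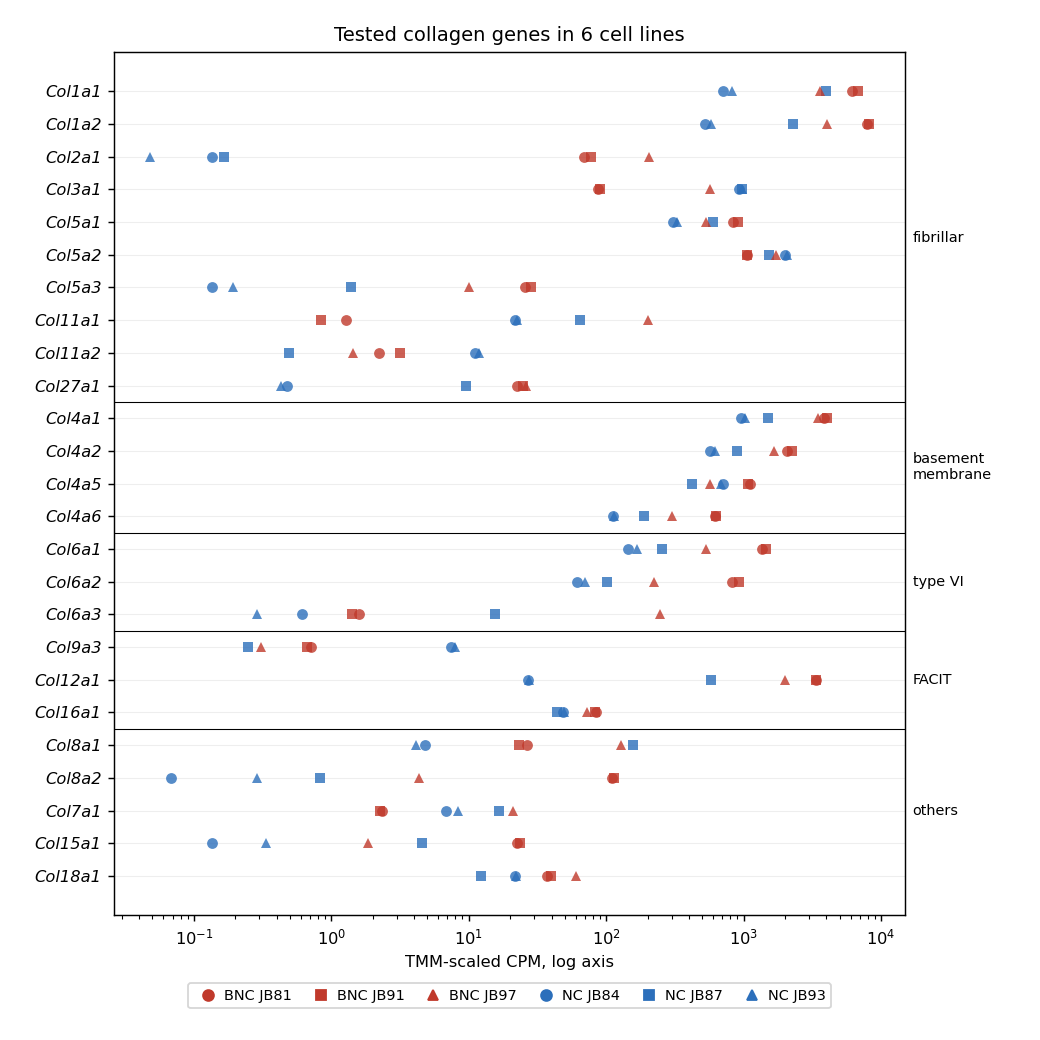
CPM (TMM-scaled, log axis) of the 25 tested collagen genes in each of the 3 BNC lines (red) and 3 NC lines (blue), 1 point per line, ordered by class. JB81 and JB91 nearly coincide in most rows, as do JB84 and JB93, and in 13 genes all red points lie to the right of all blue points.

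The count of 10 rested on how the near-identical lines were treated. With JB81 and JB91 summed, and JB84 and JB93 summed, edgeR left 0 collagen genes at an adjusted p-value under 0.05, and 10 had an unadjusted p-value under 0.05, while 0 of all 12859 genes passed; DESeq2 on the same sums left 8 genes, 7 of them among the 10, where 4.67% of all genes passed. Leaving out JB81, JB91, JB84, or JB93 left 1 collagen gene past this threshold each time, where between 0.116% and 0.423% of all genes passed. Without JB97 15 of 28 collagen genes passed, where 25.4% of all genes did, and without JB87 21 of 28, where 51.9% of all genes did. Of these 15 and 21 genes, 11 and 18 were higher in BNC lines, and the rest were lower. Without JB97 the BNC group was only the close pair JB81 and JB91, and without JB87 the NC group was only JB84 and JB93. The spread within that group was then that of near-identical lines. At adjusted p under 0.01 with over 2-fold change, 7.57% and 19.7% of all genes were called in these 2 fits. With the number at the start of the library name as a covariate, 1 collagen gene and 2.20% of all genes passed. Within each of the 2 sets of libraries that share this number, in each of which 1 group has a single line, 17 of the 25 genes were higher in BNC lines in both sets (40.1% of all genes) and 4 were lower in both (41.0% of all genes), with 13 of the 17 fixed by groups that did not overlap.

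The fibrillar genes fell into several patterns. Col2a1, the chain of the main collagen of cartilage, was at 69.0, 77.5, and 204 CPM in JB81, JB91, and JB97. JB84, JB87, and JB93 had 2, 2, and 1 counts of it, so the mean of BNC lines was at least 589-fold higher, taken against the floor of 3 counts per library, with adjusted p = 0.0055. Col5a3, a minor chain of type V collagen, was at 25.7, 28.5, and 10.0 CPM in JB81, JB91, and JB97, against 0.136, 1.40, and 0.193 CPM in JB84, JB87, and JB93. All BNC lines were above all NC lines, and the log2 fold change was 5.28 (standard error, SE, 0.99, adjusted p = 0.026).

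The chains of type I collagen, the most common collagen of scar and tendon, did not pass. Col1a2 was at 7909, 8146, and 4032 CPM in JB81, JB91, and JB97, against 519, 2274, and 575 CPM in JB84, JB87, and JB93. The groups did not overlap, with a log2 fold change of 2.58 (adjusted p = 0.057, SE 0.69). Col1a1 was at 6161, 6771, and 3597 CPM in the BNC lines, against 706, 3943, and 818 CPM in JB84, JB87, and JB93. Here JB87 exceeded JB97, so the groups overlapped, and the log2 fold change came to 1.60 (SE 0.74, adjusted p = 0.18). Without JB87, the NC line with the most of both, Col1a1 and Col1a2 were called (log2 fold changes 2.87 and 3.63, edgeR adjusted p = 0.0034 and 0.0028). The NC group of that fit was only the close pair JB84 and JB93, and 19.7% of all genes were called in it. DESeq2 on all lines called Col1a2 (adjusted p = 0.00042).

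Col3a1, the chain of type III collagen, which shares fibrils with type I in soft tissue, had the opposite order. It was at 87.4, 90.8, and 566 CPM in JB81, JB91, and JB97, against 922, 970.1, and 973 CPM in JB84, JB87, and JB93. All BNC lines lay under all NC lines, and the difference did not pass (log2 fold change -1.94, SE 0.78, adjusted p = 0.14). Without JB97, the BNC line with the most Col3a1, edgeR called Col3a1 at adjusted p under 0.01 with over 2-fold change. The BNC group of that fit was only the close pair JB81 and JB91, and 7.57% of all genes were called in it. The log2 ratio of Col3a1 to Col1a1 per kilobase of exon was -6.72, -6.80, and -3.25 in JB81, JB91, and JB97, -0.20, -2.60, and -0.33 in JB84, JB87, and JB93, and between -0.07 and 1.85 in the 9 tumors. JB97 and JB87 thus lay near each other although of different groups, and all lines lay below all tumors in this ratio, which was chosen after the values of both genes had been seen.

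**Figure D2:**
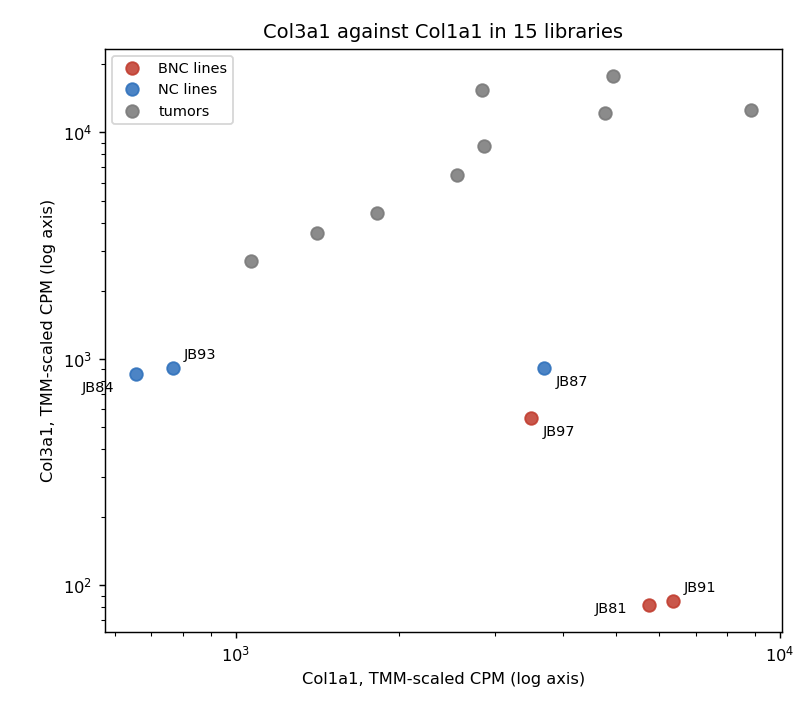
Col3a1 (vertical) against Col1a1 (horizontal) in CPM (TMM-scaled over 15 libraries, log axes), 1 point per library, for BNC lines (red), NC lines (blue), and tumors (gray). Tumors have at least 2700 CPM of Col3a1, all lines have less, and JB81 and JB91 combine the least Col3a1 with the most Col1a1 among the lines.

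Of the other fibrillar genes, Col5a1 and Col5a2 encode the usual chains of type V collagen, which seeds fibrils of type I. Col5a1 was at 830, 909, and 532 CPM in JB81, JB91, and JB97, against 305, 598, and 330 CPM in JB84, JB87, and JB93 (log2 fold change 0.88, SE 0.34, adjusted p = 0.13). Col5a2 was at 1054, 1065, and 1707 CPM in the BNC lines, against 1999, 1539, and 2063 CPM in the NC lines (log2 fold change -0.55, SE 0.26, adjusted p = 0.18). Both overlapped between the groups, and their mean differences had opposite signs. The remaining tested fibrillar genes were Col11a1, Col11a2, and Col27a1, with log2 fold changes of 0.92, -1.79, and 2.84 and adjusted p-values from 0.15 to 0.74. Without JB87, with only the close pair JB84 and JB93 as the NC group, edgeR called Col11a2 and Col27a1. In Col11a1, a chain of the type XI collagen of cartilage, JB97 had 202 CPM while JB81 and JB91 had 1.28 and 0.84 CPM.

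Of the 4 tested type IV genes 3 rose in BNC lines. Col4a1 was at 3815, 4021, and 3470.1 CPM in JB81, JB91, and JB97, against 950.0, 1506, and 1028 CPM in JB84, JB87, and JB93. Col4a2 was at 2064, 2246, and 1666 CPM in the BNC lines, against 567, 892, and 618 CPM in the NC lines. No line of one group reached the other in either gene, and the log2 fold changes were 1.70 (SE 0.23, adjusted p = 0.014) and 1.52 (SE 0.24, adjusted p = 0.018). The 690 tested genes of chromosome 8, which holds both, had a median log2 fold change of 0.41, and of the 8 other tested genes within 500 kb of the pair 7 had a higher mean in BNC lines, 1 of them at an adjusted p-value under 0.05. The part of the chromosome in the difference was not tested.

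Col4a5 and Col4a6, the chains that join in the basement membranes of smooth muscle and some epithelia, differed from each other. Col4a6 was at 617, 628, and 302 CPM in JB81, JB91, and JB97, against 112, 188, and 115 CPM in JB84, JB87, and JB93, with no overlap (log2 fold change 1.90, SE 0.37, adjusted p = 0.028). Col4a5 was at 1120.1, 1068, and 566 CPM in the BNC lines, against 704, 419, and 683 CPM in the NC lines, and the groups overlapped (log2 fold change 0.61, SE 0.34, adjusted p = 0.24). A list of pericyte and smooth muscle markers summed to between 2133 and 3042 CPM in BNC lines and to 2.58, 698, and 3.98 CPM in JB84, JB87, and JB93, and 0 of its 4 tested genes were higher in BNC lines at an adjusted p-value under 0.05 while 1, Des, was lower. In the BNC lines and JB87 nearly all of the sum was Acta2, the smooth muscle actin gene, named for its level. Acta2 was at 3001, 3234, and 2154 CPM (scaled over the 6 lines) in JB81, JB91, and JB97 against 0.746, 736, and 1.59 CPM in JB84, JB87, and JB93 (edgeR adjusted p = 0.31). Mcam had between 0.579 and 37.7 CPM (adjusted p = 0.14), and Rgs5, Cspg4, Myh11, and Des had at most 2.68 CPM in any line. The remaining type IV genes, Col4a3 and Col4a4, which encode chains of the kidney filter and the lung, had at most 6 counts in any line and were not tested.

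Col6a1 and Col6a2 of type VI collagen rose together in BNC lines. Col6a1 was at 1361, 1453, and 532 CPM in JB81, JB91, and JB97, against 145, 254, and 167 CPM in JB84, JB87, and JB93 (log2 fold change 2.56, SE 0.45, adjusted p = 0.023). Col6a2 was at 819.9, 924, and 221 CPM in the BNC lines, against 61.0, 102, and 70.1 CPM in the NC lines (log2 fold change 3.08, SE 0.58, adjusted p = 0.026). JB97 was the lowest BNC line and JB87 the highest NC line in both, and the groups did not overlap.

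Col6a3, which encodes the longest chain of the same trimer, did not follow them. It was at 1.59, 1.41, and 247 CPM in JB81, JB91, and JB97, against 0.611, 15.4, and 0.289 CPM in JB84, JB87, and JB93. JB81 and JB91, the lines with the most Col6a1 and Col6a2, thus had a lower CPM of Col6a3 than JB87 (log2 fold change 3.97, SE 2.45, adjusted p = 0.28), and without JB97 the log2 fold change was -1.82. Col6a4, Col6a5, and Col6a6 encode chains that can take the place of the Col6a3 chain, and they had between 0 and 25 counts per line and were not tested.

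Of the 3 tested FACIT genes 1, Col16a1, passed, with the smallest difference among the 10 genes. It was at 83.7, 82.8, and 72.5 CPM in JB81, JB91, and JB97, against 48.6, 43.8, and 49.6 CPM in JB84, JB87, and JB93, with no overlap (log2 fold change 0.75, SE 0.13, adjusted p = 0.023). Col12a1, which bridges type I fibrils, was at 3353, 3367, and 1986 CPM in the BNC lines, against 27.004, 583, and 27.4 CPM in the NC lines. The groups did not overlap, the NC lines spanned a wide range, and the difference did not pass (log2 fold change 3.77, SE 1.35, adjusted p = 0.11). Without JB87, with only the close pair JB84 and JB93 as the NC group, Col12a1 was called (log2 fold change 6.76, edgeR adjusted p = 0.00069). DESeq2 on all lines called it too (3.80, adjusted p = 0.0022). Col9a3, a chain of the type IX collagen of cartilage, was at 0.709, 0.663, and 0.309 CPM in JB81, JB91, and JB97, against 7.40, 0.247, and 8.01 CPM in JB84, JB87, and JB93 (log2 fold change -3.20, SE 1.13, adjusted p = 0.10). It was low in JB87 as in the BNC lines. Without JB87, again with only that close pair as the NC group, Col9a3 was called lower in BNC lines (log2 fold change -3.74, edgeR adjusted p = 0.0026).

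Of the other collagens, Col8a2 and Col18a1 were higher in BNC lines. Col8a2, a chain of the network collagen of the corneal and vascular matrix, was at 111, 115, and 4.38 CPM in JB81, JB91, and JB97, against 0.0678, 0.824, and 0.289 CPM in JB84, JB87, and JB93 (log2 fold change 7.67, SE 1.53, adjusted p = 0.030). All BNC lines were above all NC lines, and the size of the change differed widely between JB97 and the other BNC lines. Its usual partner Col8a1 was at 26.7, 23.3, and 128 CPM in the BNC lines, against 4.82, 156, and 4.10 CPM in the NC lines. It overlapped (log2 fold change 0.11, SE 1.498, adjusted p = 0.97). Col18a1, the heparan sulfate-bearing collagen from which endostatin is cut, was at 36.8, 39.5, and 60.5 CPM in JB81, JB91, and JB97, against 21.8, 12.4, and 21.95 CPM in JB84, JB87, and JB93, with no overlap (log2 fold change 1.28, SE 0.31, adjusted p = 0.046). Col18a1 missed the threshold with scaling by library size only (adjusted p = 0.072), with at least 10 counts in every line (0.053), and without JB97 (0.061), all by edgeR. Col7a1 and Col15a1 were the other tested genes of this class, and both overlapped between the groups, with log2 fold changes of -0.31 and 3.29 and adjusted p-values of 0.83 and 0.17.

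**Figure D3:**
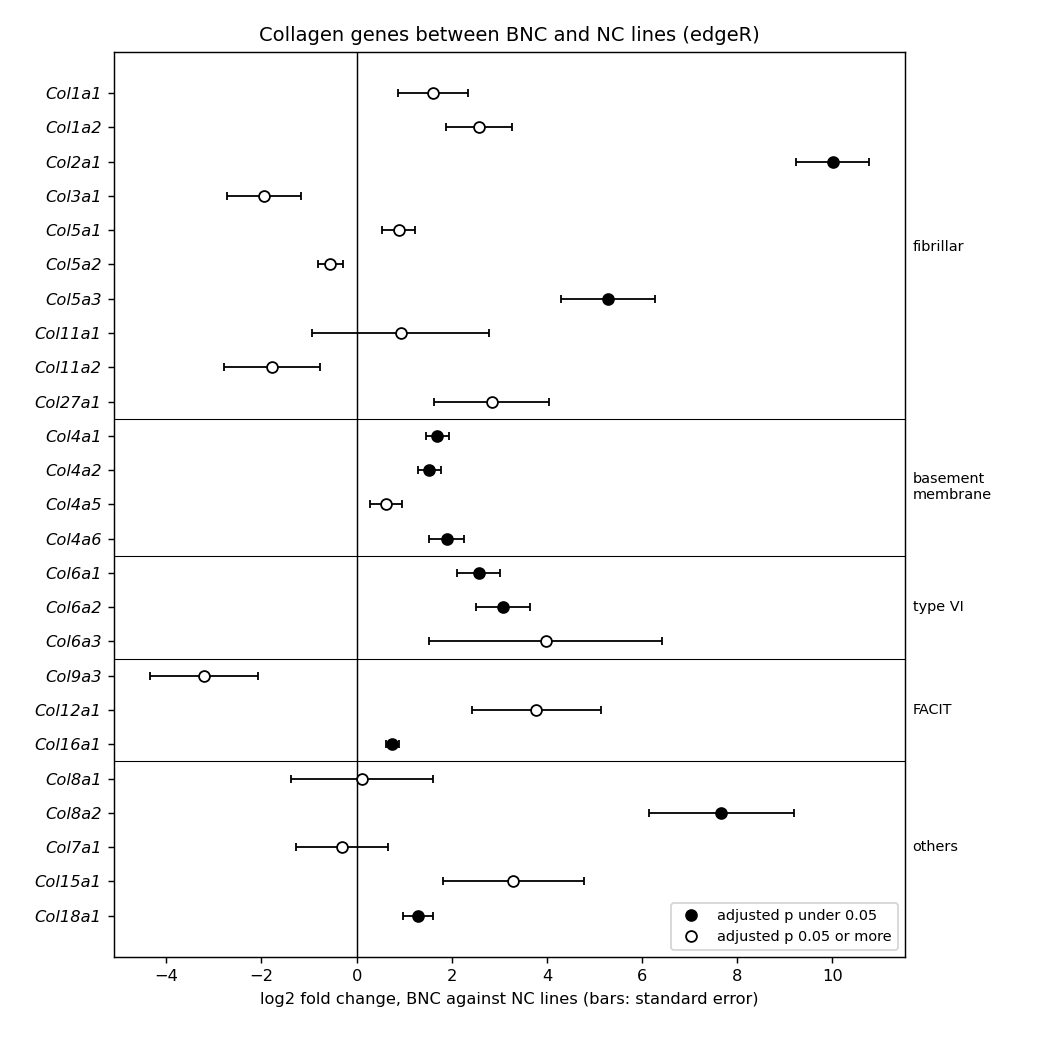
Log2 fold change of BNC against NC lines with its standard error for the 25 tested collagen genes, by class. Filled points have an adjusted p-value under 0.05 (edgeR), and all 10 of them lie to the right of 0, from 0.75 in Col16a1 to 10.01 in Col2a1. The point of Col2a1 is the fitted value and not the lower bound, and it rests on at most 2 counts in each NC line.

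The 19 genes that were not tested had few counts in most lines. Col9a1 and Col13a1 had 0 counts in every line, and Col4a3, Col6a6, Col22a1, Col25a1, and Col26a1 had at most 3 counts in each. Col28a1 had 69, 70, and 4 counts in JB81, JB91, and JB97 and 0, 1, and 0 in JB84, JB87, and JB93, so that JB81 and JB91 were high while JB97 was about at the floor of 3 counts per library, and the mean of BNC lines was at least 10.7-fold above that floor. Col20a1, a FACIT gene, had 261 counts in JB84 and 378 in JB93 but 2 in JB87, and 8, 2, and 6 in the BNC lines, so it stood out in 1 of the close pairs only. DESeq2 on all lines, which tested more genes, called both Col28a1 and Col20a1. The rest (Col24a1, Col4a4, Col6a4, Col6a5, Col9a2, Col14a1, Col19a1, Col10a1, Col17a1, and Col23a1) had between 0 and 25 counts per line.

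Chains that join in 1 trimer were compared by the log2 ratio of their CPM per kilobase of exon. Of 12 pairs listed, 7 had over 3 counts of both chains in every line, and with 3 against 3 lines an exact permutation test cannot go below p = 0.1, so no pair could pass. The Col1a1 to Col1a2 ratio was 0.66 ± 0.10 (SD, n = 3) in BNC lines and 1.503 ± 0.19 (SD, n = 3) in NC lines, with no overlap (two-sided exact permutation p = 0.1, adjusted over 7 pairs 0.23). The Col4a5 to Col4a6 ratio was 1.09 ± 0.071 against 2.37 ± 0.84 (SD, n = 3 each, exact p = 0.1), and the Col4a1 to Col4a2 ratio was 0.76 ± 0.12 against 0.57 ± 0.011 (SD, n = 3 each, exact p = 0.1). In these 3 pairs the lines of the groups did not overlap, and the change of Col4a1 and Col4a2 differed by 0.18 on the log2 scale. The Col6a1 to Col6a3 ratio ran from 2.55 in JB97 to 11.5 in JB91, within a single group. Ratios as levels depend on the length used, because the union of exons of Col1a2 is 12426 bases and its longest transcript 5348 bases, and differences between groups do not.

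Genes whose products make, bind, or cut collagen were counted over fixed lists. Of 14 tested genes of chain hydroxylation and glycosylation, 0 were higher and 1 was lower at an adjusted p-value under 0.05: Plod1, a lysyl hydroxylase, fell from 62.0 ± 8.36 to 23.7 ± 11.1 CPM (SD, n = 3; adjusted p = 0.048). The second by p in this list, the galactosyltransferase Colgalt1, had a log2 fold change of 0.58 (adjusted p = 0.052). Of 10 genes of folding and export none passed by edgeR (0 genes at an adjusted p-value under 0.05), with Fkbp14 at -0.71 (adjusted p = 0.054) and Sparc at 1.10 (adjusted p = 0.064). Of 7 tested propeptide-processing genes 2 were higher: the procollagen proteinases Adamts14 (log2 fold change 2.20, SE 0.26, adjusted p = 0.011) and Adamts3 (4.83, SE 0.98, adjusted p = 0.031). Of 6 crosslinking genes 1 was higher, the lysyl oxidase gene Lox, at 2855 ± 78.9 CPM in BNC and 1573 ± 95.5 CPM in NC lines (SD, n = 3; adjusted p = 0.023), and Loxl1 had a log2 fold change of 4.01 (adjusted p = 0.058).

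Of 7 tested collagen receptors 3 were higher and 1 was lower. Mrc2, an endocytic receptor that takes up collagen fragments, was at 336 ± 69.2 CPM in BNC and 99.8 ± 25.9 CPM in NC lines (SD, n = 3; adjusted p = 0.016), Ddr1 and Itgb1 were the others that rose, and Itga10, the alpha10 integrin chain, fell (log2 fold change -1.13, adjusted p = 0.028). Of 9 tested collagen-binding matrix genes 0 passed, and those with the smallest p were Fmod (log2 fold change 6.97, adjusted p = 0.063) and Postn (4.73, adjusted p = 0.11). Of 7 tested genes of collagen cleavage and its inhibitors 1 passed, the inhibitor Timp3, which fell (log2 fold change -0.96, SE 0.14, adjusted p = 0.015), and Timp2 was at 0.76 (adjusted p = 0.085). Over the lists the counts stand beside the 5.78% of all genes that were higher and the 8.45% that were lower.

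Because Col2a1 marks cartilage, a cartilage list was read beside it. Of its 5 tested genes 1 was higher, the matrilin gene Matn2 (log2 fold change 2.45, SE 0.28, adjusted p = 0.010). Sox9, which drives Col2a1 in cartilage, was at 51.5, 53.8, and 25.0 CPM in JB81, JB91, and JB97, against 2.58, 12.4, and 2.75 CPM in JB84, JB87, and JB93, with no overlap (log2 fold change 2.89, SE 0.73, adjusted p = 0.051). Sox5, its partner there, ran the other way, at 4.25, 3.71, and 10.3 CPM in JB81, JB91, and JB97 against 45.3, 12.03, and 41.9 CPM in JB84, JB87, and JB93, also with no overlap (log2 fold change -2.45, SE 0.65, adjusted p = 0.055). Sox6 was below 1 CPM in every line (log2 fold change -0.63, adjusted p = 0.39). Matn1, Snorc, and Cnmd, which mark chondrocytes, had at most 3 counts in every line, and the 6 chondrocyte markers summed to between 0.45 and 0.90 CPM in BNC lines and between 0 and 2.47 CPM in NC lines.

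**Figure D4:**
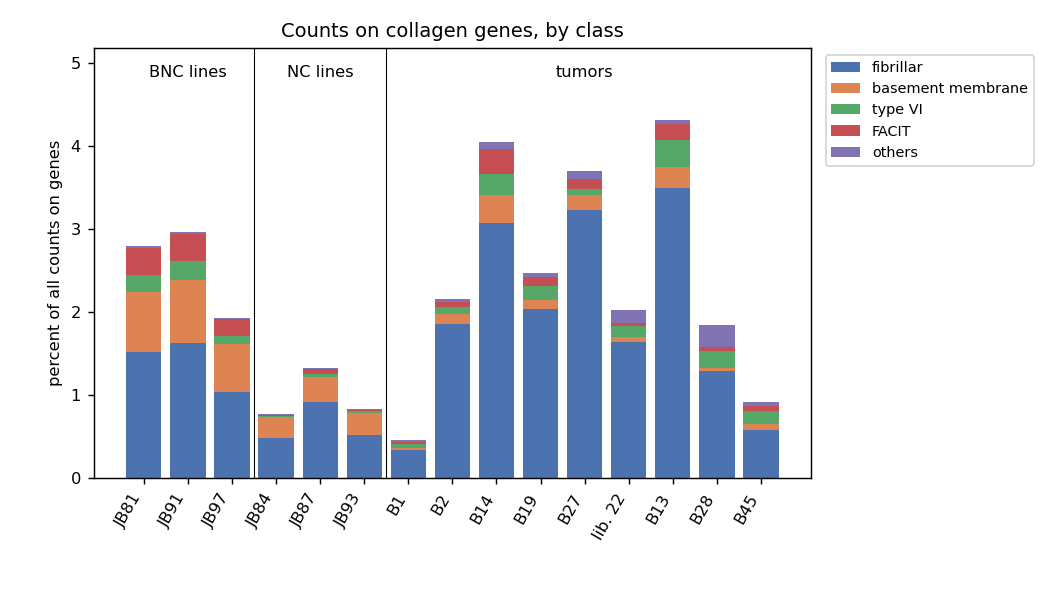
Share of all counts on genes that lay on collagen genes, in percent, stacked by class for the 3 BNC lines, 3 NC lines, and 9 tumors. The basement membrane part takes between 22.1% and 32.6% of the bar in each line and between 1.80% and 8.42% in each tumor, and the bar of tumor B1, the library with the most Gm42418 reads, is the lowest.

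In the tumors the collagens had another make-up. Type IV genes took between 22.1% and 32.6% of collagen counts in the 6 lines and between 1.80% and 8.42% in the 9 tumors, with no overlap, and fibrillar genes took between 53.96% and 69.1% in the lines and between 63.6% and 87.5% in the tumors. FACIT genes took between 10.2% and 11.6% in BNC lines, between 1.36% and 4.63% in NC lines, and between 2.08% and 7.22% in tumors. Collagen genes together took between 0.457% and 4.32% of all counts in tumors. The names of all tumor libraries start with 1 number and those of the lines with others, so tumor and library series cannot be told apart. In bulk tissue, fewer cells of a type and less RNA per cell also cannot be told apart.

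Of 40 collagen genes tested between tumors and lines, 16 were higher in tumors at adjusted p under 0.01 with over 2-fold change (edgeR's quasi-likelihood test), where 28.2% of all 15675 genes were, and 2 were lower, where 11.5% were, so that 18 of the 40 differed either way, where 39.7% of all genes did. Every tumor was above every line in 10 of the 40, against 16.4% of all genes tested, and below every line in 0, against 8.92%. The higher genes were 3 fibrillar, 3 of type VI, 3 FACIT, and 7 others, and both lower genes were of type IV. The median log2 fold change was 2.71, also with the 5 genes that had at most 3 counts in every line set at their bounds, against 0.38 over all genes tested. Against the BNC lines alone 8 were higher and 5 were lower, where 32.0% of all genes differed either way, and against the NC lines alone 15 were higher and 0 were lower, where 25.9% did. Without tumors B1, B2, B19, and B45, 14 of 36 were higher and 1 was lower, where 30.8% of all genes differed, and with the close lines summed 10 of 42 were higher and 0 were lower, where 29.2% did. A list of 8 fibroblast markers summed to between 1100.3 and 6085 CPM in tumors and between 37.0 and 114 CPM in lines, and Lum of this list had at most 3 counts in every line. A list of 8 leukocyte markers summed to between 1015 and 6287 CPM in tumors and between 3.70 and 41.7 CPM in lines, and one of 7 endothelial markers to between 104 and 876 CPM and between 1.53 and 57.7 CPM. A list of 6 muscle markers summed to between 187 and 46055 CPM in tumors and between 0.315 and 4.51 CPM in lines. The pericyte and smooth muscle list summed to between 649 and 12370 CPM in tumors, a range that holds the BNC lines and JB87. Different genes made up these sums. Acta2, nearly all of the sum in BNC lines, was at most 902 CPM in tumors and at least 2154 CPM (scaled over the 6 lines) in BNC lines. Des, at most 2.47 CPM in any line, had a median of 1765 CPM over the tumors. The part of these cells in the tumor values was not tested.

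Col14a1, a FACIT of dense connective tissue, had the largest change. It was between 0.0415 and 1.78 CPM in the lines and between 37.7 and 865 CPM in the tumors, with a median of 165 CPM (log2 fold change 9.55, SE 1.07, adjusted p = 5.8e-06). Col13a1, a transmembrane collagen, had 0 counts in all lines and between 0.687 and 8.32 CPM in the tumors, on average at least 17.4-fold above the floor (adjusted p = 0.00011). Col6a5 was between 0 and 1.03 CPM in the lines and between 5.42 and 189 CPM in the tumors (log2 fold change 8.24, SE 1.19, adjusted p = 5.3e-05), and its highest value was in B45. In all 3 genes every tumor was above every line.

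Of the genes named between the lines, Col3a1 was between 81.6 and 913 CPM in the lines and between 2700 and 17810.3 CPM in the tumors, with a median of 8691 CPM (log2 fold change 4.33, SE 0.65, adjusted p = 7.7e-05). Every tumor exceeded every line. Col16a1 was between 41.1 and 78.2 CPM in the lines and between 119.3 and 582 CPM in the tumors, again without overlap (log2 fold change 2.06, SE 0.36, adjusted p = 0.00022). Col5a3, Col8a2, and Col18a1, which were also higher in BNC than in NC lines, were called higher in tumors with log2 fold changes of 4.85, 4.73, and 3.10, and some BNC lines reached into the range of the tumors in each. Col18a1 was not called when any of the 6 lines was left out (adjusted p from 0.017 to 0.023), with library size only (0.011), or with the close lines summed (0.039). Against the BNC lines alone, the log2 fold changes of Col5a3, Col8a2, and Col18a1 were 2.20, 0.91, and 2.44, and 0 of these 3 genes were called (edgeR adjusted p = 0.020, 0.53, and 0.085).

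The type IV genes ran the other way. Col4a1 was between 881 and 3772 CPM in the lines and between 137 and 1486 CPM in the tumors, with a median of 433 CPM (log2 fold change -1.64, SE 0.45, adjusted p = 0.0062). Col4a5 was between 393 and 1045 CPM in the lines and between 36.2 and 408 CPM in the tumors (log2 fold change -2.18, SE 0.52, adjusted p = 0.0024). Both overlapped, and B28 was the lowest and B14 the highest tumor in each. Neither was called with the close lines summed, against the NC lines alone, or without tumors B1, B2, B19, and B45, and Col4a1 was not called when tumor B1 or any of the lines was left out (adjusted p from 0.012 to 0.019). Col4a2 and Col4a6 were at log2 fold changes of -1.34 and -1.82 (adjusted p = 0.016 and 0.019), which missed the threshold of 0.01. Col4a3 and Col4a4 were highest in B2, at 10.5 and 29.5 CPM, with medians over the tumors of 0.0913 and 0.630 CPM, and B2 was the library with the airway gene Scgb1a1 at 30129 CPM.

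Type I collagen overlapped between tumors and lines. Col1a1 was between 655 and 6352 CPM in the lines and between 1067 and 8852 CPM in the tumors, and Col1a2 between 482 and 7642 CPM and between 1278 and 8492 CPM, at log2 fold changes of 0.22 (SE 0.52, adjusted p = 0.74) and 0.78 (SE 0.49, adjusted p = 0.18). Col6a1, Col6a2, and Col6a3 were at log2 fold changes of 0.89, 1.41, and 3.08 (adjusted p = 0.083, 0.014, and 0.028), and Col5a1, Col5a2, Col9a3, Col12a1, and Col8a1 were between -0.57 and 1.47 with adjusted p-values from 0.083 to 0.94. Col6a3, which had 247 CPM in JB97 alone among the BNC lines, was between 42.3 and 324 CPM in all tumors, and it was called higher in tumors without JB97 (log2 fold change 5.99, adjusted p = 0.00046) and without JB87 (4.87, adjusted p = 0.0057). Col8a1 was called higher without JB87 (3.28, adjusted p = 0.00016).

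Col2a1, the gene that set the line groups furthest apart, was low in the tumors. Its median over the 9 tumors was 0.172 CPM, 6 of them had at most 3 counts, and the highest was B45 at 6.998 CPM, while the BNC lines were between 64.4 and 198 CPM on the same scale. The difference between tumors and all lines did not pass (log2 fold change -1.73, SE 1.29, adjusted p = 0.26). Without tumors B1, B2, B19, and B45 it was called lower in tumors (log2 fold change -3.64, adjusted p = 0.0067), and it was the lower gene of that fit. The chondrocyte markers summed to 63.0 CPM in B45 and to between 1.94 and 4.92 CPM in the other 8 tumors. Col10a1, which marks hypertrophic cartilage, was also highest in B45, at 74.5 CPM against a median of 0.460 CPM over the tumors, as were Col22a1, Col11a2, and Col9a3. So were genes of other classes, among them Col27a1, Col6a4, Col6a5, Col6a6, and Col20a1. Col22a1 was next highest in B19 and B1, at 10.1 and 9.13 CPM, the other tumors with the most Acta1.

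**Figure D5:**
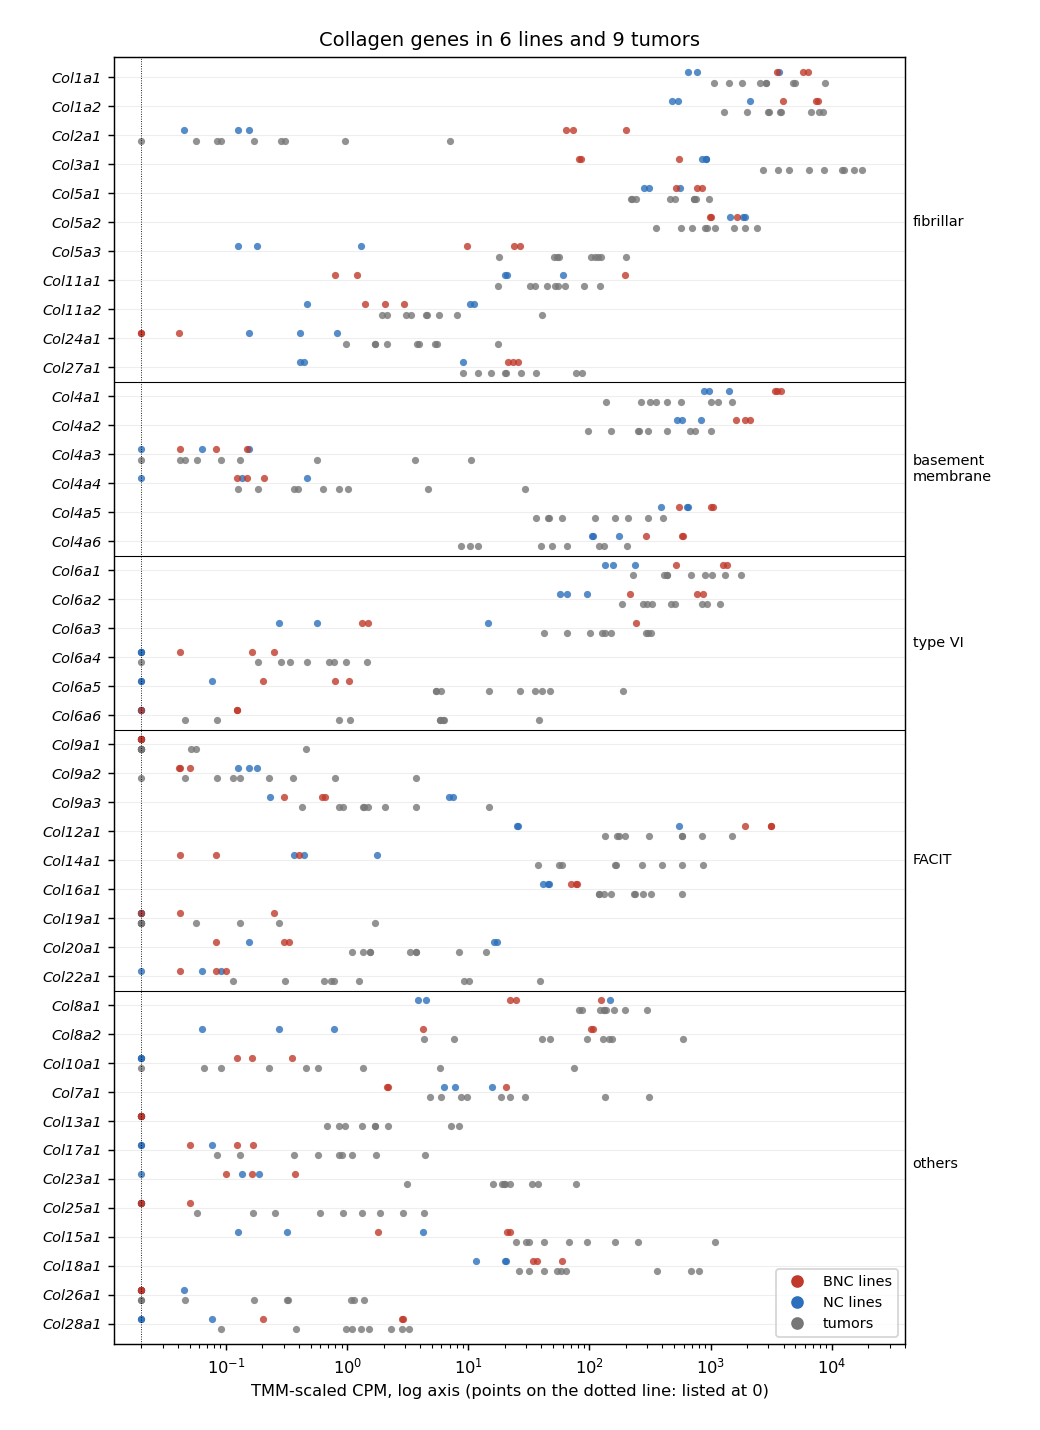
CPM (TMM-scaled over 15 libraries, log axis) of all 44 collagen genes in BNC lines (red), NC lines (blue), and tumors (gray), 1 point per library, by class, with points on the dotted line listed at 0. Gray points lie right of all line points in Col3a1, Col14a1, and Col16a1, and left of most line points in Col4a1, Col4a2, Col4a5, and Col4a6.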

How the data were processed

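The authors deposited counts, whole numbers of single-end reads per Ensembl gene without normalization. Per the methods of the study, poly-A RNA reads were mapped to mm10 with TopHat 2.0.12, low-quality and nonprimary alignments were dropped, and the rest were counted with HTSeq. The annotation release and strand setting are not given in the sources used here, so overlapping genes (Col4a1 and Col4a2 among them) and antisense genes are uncertain. Columns were put in BNC and NC groups by the line names in the heads of the study's gene list, and the other 9 columns were taken as tumors. The DNA table (14 columns) and the chromatin profiles were not used.

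The count test was that of edgeR 4.0.16 under R 4.3.3 (filterByExpr with a minimum count of 10, TMM, quasi-likelihood F test, Benjamini-Hochberg adjustment over all genes tested), without covariates. Symbols were found for 98.5% of identifiers. A gene was called at adjusted p under 0.01 with over 2-fold change. Tumors were compared with the mean of BNC and NC lines in a fit of all 15 libraries. CPM are TMM-scaled, over 6 lines for the line comparison and over all 15 libraries for Bap1, marker sums, chain ratios, and tumors. The standard error is the log2 fold change over the square root of F. A floor of 3 counts per library gives lower bounds and covers counting error only. Exon lengths, sites, and exons come from GRCm38.p6, read with samtools 1.23.1, and figures were drawn with matplotlib 3.10.9.

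Named with values per line are members with an unadjusted p-value under 0.05, the member with the highest level per length in each class, and their chain partners. From each other list the 2 genes with the smallest p are named, and for tumors the 3 largest changes each way. Acta2, Sox5, Sox6, Wt1, and Msln were named after their values were seen. Members and lists were chosen with earlier results of these data known. Alternatives were DESeq2 1.42.0, library size without TMM, both filters, the replicate block, the name prefix, summed close lines, and leaving out each line. DESeq2 on summed lines and the fits without tumors were added after the data were seen. The tests were first tested on simulated data.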

Additional observations from a re-analysis of the deposited data

Results flagged for a closer look

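Among 20 collagen genes whose values were examined over the 9 tumors, Col2a1 had 1 library far from the rest: tumor B45 had 6.998 CPM, and the next tumor had 0.957 CPM. On log2 values with 0.5 CPM added, its gap took 0.605 of the whole range, above the limit of 0.493 for 9 samples. Chance flags about 1 in 20 groups, which is 1 among 20 genes examined.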

How the results depend on the processing

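Numbers of collagen genes past a threshold moved widely, and in some settings genes that were lower in BNC lines passed too. The call of 1 gene of 25 (0.01 and 2-fold) became 13 of 39 with DESeq2 (9.88% of all genes), 0 with the name prefix as a covariate or with close lines summed, and 6 of 42 with DESeq2 on summed lines (2.84%). It was also 0 with at least 10 counts in every line, a filter that removes Col2a1 by construction and leaves 17 genes tested. The 10 genes at an adjusted p-value under 0.05 (14.2% of all genes), all higher in BNC lines, became 20 with DESeq2 (19.3%), 16 of them higher. Col3a1 and Col9a3 were among those that DESeq2 put lower in BNC lines (adjusted p = 0.032 and 0.013). The count was 6 of 17 with at least 10 counts in every line (10.4%), which removes Col2a1, Col5a3, and Col8a2. It was 1 with the name prefix (2.20%), 0 with close lines summed (0% of all genes), and 9 with library size only (15.1%). In the main fit the collagen-making, binding, breakdown, and cartilage lists had 14, 10, 7, 6, 9, 7, 7, and 5 tested genes. Of these 10 passed at 0.05, where 14.2% of all genes did. The 10 became 30 with DESeq2 (19.3% of all genes), 7 with at least 10 counts in every line (10.4%), and 2 with the name prefix (2.20%). They became 0 with close lines summed (0%) and 5 with DESeq2 on summed lines (4.67%). Leaving out each line gave 0 to 12 called collagen genes and 1 to 21 at 0.05 (15 without JB97, 21 without JB87, and 1 without any other line). Of the 15 and the 21 genes, 11 and 18 were higher in BNC lines. The same fits gave 0 to 46 list genes, where between 0.116% and 51.9% of all genes passed. The median log2 fold change was between 1.26 and 2.53 in every setting run. The 18 tumor calls of 40 (39.7% of all genes) became 5 of 17 with at least 10 counts in every library (27.8%), 10 of 42 with close lines summed (29.2%), 26 of 43 with DESeq2 (30.1%), and 15 to 19 of 42 without a line (32.8% to 35.2%). Apart from the genes that a filter removes, the cause of these changes was not tested.

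With the replicate numbers of the lines as a block, 0 collagen genes were called, 0 had an adjusted p-value under 0.05, and 0 list genes did, while 12 collagen genes had an unadjusted p-value under 0.05. Those numbers come from the heads of the study's gene list, and nothing in the sources says that they mark a shared animal or day, and JB91 and JB97 share the number 2.

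Values that turned sign were all short of the threshold. Between the lines, Col8a1 was at -0.067 and -0.031 with close lines summed (edgeR and DESeq2), and ran from -1.12 (without JB97; -0.44 without JB93 or JB84) to 3.76 when lines were left out, and Col6a3 ran from -1.82 (without JB97) to 7.60. Tumors against BNC lines alone gave -0.59 in Col1a1, -0.51 in Col1a2, -0.41 in Col5a1, -0.39 in Col6a1, and -0.13 in Col6a2, and against NC lines alone 3.27 in Col2a1, -0.70 in Col9a3, and 1.33 in Col12a1. Tumors against all lines gave -0.016 in Col9a3 with DESeq2, -0.038 in Col5a1 with close lines summed, and, when lines were left out, from -0.063 (without JB97) to 0.22 in Col5a1 and from -0.82 to 0.93 (without JB87) in Col12a1. The BNC minus NC difference of the log2 ratio ran from -4.31 to 0.54 (without JB87; 0.21 without JB91) in Col11a1 to Col11a2, and from -1.61 to 2.84 (without JB97; 0.98 and 0.34 without JB93 and JB84) in Col6a1 to Col6a3.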
